A study of Homo sapiens with 10 samples.

Results

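The transcriptomes of HEK293T cells that had received the SAM activator were compared with those of cells that had received VP64. HEK293T is a human embryonic kidney line. Members were taken from the sample titles, which gave 2 SAM libraries and 2 VP64 libraries, 4 of the 10 in the series. The cells had been transfected with Lipofectamine 2000, and per the series design every activator was given together with a guide that targets HBG1, which encodes a fetal globin. The other groups, of 2 libraries each, were VPR, Suntag and a control labelled guide only. Libraries were made from poly(A) RNA. Nothing in the labels tells whether the 2 libraries of a group had separate cultures as their source. The p-values therefore refer to the spread between these samples, which may be technical.

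VP64 and SAM both steer a nuclease-dead Cas9 to a promoter with a guide RNA. VP64 is a transcriptional activation domain of viral origin, fused to that Cas9. In the SAM system, as it is usually built, a Cas9 of this kind fused to VP64 is combined with a guide whose added hairpins bind a coat protein carrying the p65 and HSF1 activation domains, so that several kinds of domain meet at one promoter. The comparison therefore asks which transcripts differ between cells given a single-domain activator and cells given a multi-domain one with a guide against the same gene. The labels do not give the plasmids, their amounts or the time of harvest.

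Each file lists 31848 gene clusters by number, with no gene names. HBG1, the genes that mark HEK293T cells and the fixed lists of pathway genes were therefore not located, and a cluster is described here by its transcript length and its values. Expected counts, which are RSEM's estimated reads per cluster and need not be whole, summed to 3434486 and 4435296 in the SAM libraries and to 5351863 and 3316534 in the VP64 libraries. Levels of one cluster across libraries are given as CPM, which are counts scaled by that sum, and the level of a cluster per length is given as deposited TPM. Where clusters are ordered or classed by level below, this is by CPM, the reads they drew, which depends on length as well. The filter on low counts left 13241 clusters for the test, with 99.8% of each library's counts. The preparation does not mark the strand, so overlapping and antisense genes cannot be told apart.

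SAM and VP64 differed in many clusters, most of them by less than 2-fold. At an adjusted p under 0.05 in edgeR's quasi-likelihood test, 568 of the 13241 clusters were called, which is 4.29% of those tested. Of these, 201 were higher in SAM (1.52%) and 367 were lower (2.77%). At an unadjusted p under 0.05 there were 2879. The median difference was 1.55-fold among the clusters called higher and 1.41-fold among those called lower. Differences under 1.5-fold made up 40.8% of the higher calls and 68.1% of the lower ones. At least 2-fold differences were called for 47 clusters higher in SAM (0.355% of those tested) and for 15 lower (0.113%), so that with TMM scaling between libraries the lower calls were more numerous but smaller. In all 568 called clusters the 2 SAM libraries lay on one side of the 2 VP64 libraries. Over all tested clusters such separation was frequent too, with SAM above VP64 in 27.2% and below it in 28.4%.

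**Figure D1:**
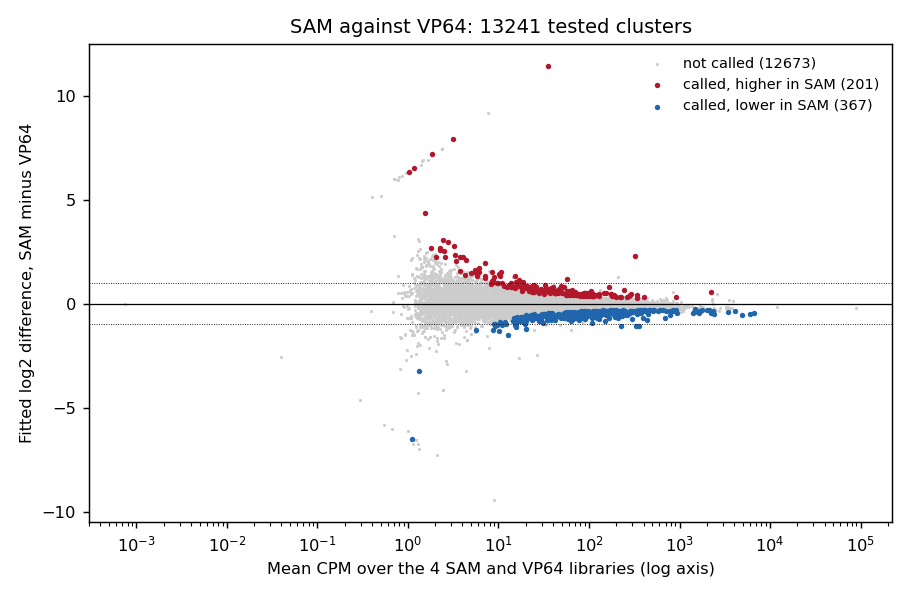
Each point is 1 of the 13241 tested clusters, with its mean CPM over the 4 SAM and VP64 libraries on a log axis and its fitted log2 difference, SAM minus VP64, on the vertical axis. Red points are the 201 clusters called higher in SAM, blue points the 367 called lower, and dotted lines mark 2-fold. The higher calls past 2-fold lie mostly at low levels, and clusters 4232 (the topmost point, whose height depends on the prior count because VP64 is at 0) and 29063 (at 2.29) stand apart from the others at their levels.

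The number of calls rested on all 4 libraries. A single SAM or VP64 library left in its group reduced it to 12 without VP64 replicate 1, 42 without VP64 replicate 2, 27 without SAM replicate 1 and 35 without SAM replicate 2, where the lone sample is assumed to vary like the other groups. The count rose to 909 without Suntag replicate 1 and to 936 without Suntag replicate 2 (562 and 564 without a VPR library, 497 and 501 without a control library). The cause was not tested. The calls past 2-fold fell from 62 to 5, 11, 7 and 14 without those same SAM and VP64 libraries, in the order given. The split by direction moved with the scaling between libraries. With RLE factors in place of TMM, 212 clusters were called higher and 349 lower. In limma on log2(TPM + 1) with TPM rescaled by TMM the numbers were 114 and 201. TMM factors were 1.05 and 1.03 in SAM and 0.979 and 0.976 in VP64, and with library totals in their place 394 clusters were called higher and 156 lower, 71.6% higher against 35.4% with TMM. In limma on log2(TPM + 1) without that rescaling the split was 240 higher and 59 lower. The median of all tested clusters, near 0 with TMM, stood at 0.088 on the log2 scale with library totals and at 0.11 in that limma fit. All 568 called clusters kept the sign of their difference with library totals, and 567 of 568 did in that limma fit. With TMM every called difference was at least 0.27 in size on the log2 scale, more than these shifts. The kept signs therefore could hardly have come out otherwise and are no test of the scaling.

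Cluster 29063 had the lowest adjusted p of the comparison. Its 2 transcripts have a mean length of 2153 nt. It stood at 598 and 495 CPM in the SAM libraries and at 109 and 101 CPM in the VP64 libraries. The level was 549 ± 84.6 TPM in SAM and 102 ± 6.51 TPM in VP64 (SD, n = 2 each). The 2 SAM libraries lay far above both VP64 libraries, and the highest library of any other group stood at 140 CPM. The fitted log2 difference was 2.29 ± 0.12 (SE), a 4.88-fold rise, with adjusted p = 3.61e-08 in edgeR's quasi-likelihood test. Its counts were not whole in all 10 libraries, so some of its reads were divided with other clusters.

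Cluster 4232 led the clusters whose counts were whole in every library. It has 4 transcripts with a mean length of 870 nt, and SAM gave it 260 and 295 counts, while VP64 gave none in either library. VPR gave it 88 and 75 counts, Suntag 106 and 73, and the control 0 and 3. The cluster was thus highest in SAM but also present in VPR and Suntag, while VP64 lay near the control. Its SAM level was 211 ± 35.4 TPM (SD, n = 2). That was below the SAM level of cluster 29063 per length. With a floor of 3 counts in place of 0 over both VP64 libraries, the ratio was 204 (95% exact Poisson interval 69.4 to 991). The adjusted p was 3.88e-07 in edgeR's quasi-likelihood test. The floor covers counting error only.

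Below cluster 4232, the next 9 whole-count clusters called higher were all scarce. The second by size of difference, with a length of 1251 nt, had 9 and 9 counts in SAM and 0 in both VP64 libraries. Against the same floor of 3 counts the ratio was 6.61 (95% exact Poisson interval 1.93 to 35.0). The third, of 5009 nt, had 7 and 9 counts in SAM and 0 in both VP64 libraries. Its ratio to that floor was 5.87 (1.68 to 31.5). These 2 clusters were also seen in VPR, with 5 and 6 counts for the former and 2 and 1 for the latter. Suntag held 3 and 1 counts of the former and 2 and 2 of the latter. The control held 1 and 1 counts of the former and 1 and 0 of the latter. At such counts the 0 in VP64 cannot be told from the control. The fifth, of 2439 nt, had 21 and 12 counts in SAM against 2 and 2 in VP64, a ratio of 9.09 (95% exact Poisson interval 3.23 to 35.3). The ninth, of 3516 nt with 1 transcript, had 24 and 28 counts in SAM against 5 and 6, a ratio of 5.21 (2.68 to 11.1). None of these 9 clusters was called without any one of the 4 SAM and VP64 libraries, with edgeR adjusted p from 0.0541 to 0.405 across those fits, and DESeq2 gave none of them an adjusted p.

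The other end of the whole-count calls held smaller differences. Cluster 18085, of 2418 nt with 3 transcripts, had 13 and 8 counts in VP64 and 0 and 2 in SAM. VP64 exceeded SAM 9.53-fold by summed counts (95% exact Poisson interval 2.33 to 83.9), with edgeR adjusted p = 0.0464. The cluster was not called with library totals, with the replicate numbers as a block in the fit or with the effective length offset. Nor was it called in limma on log2(TPM + 1), with or without TPM rescaled by TMM. Scaled for depth, VP64 stood at 2.43 and 2.41 CPM and was the highest group. VPR lay at 1.78 and 1.21 CPM, Suntag at 0.70 and 1.25 CPM and the control at 0.43 and 0.82 CPM. The second cluster, of 2731 nt, had 70 and 37 counts in VP64 and 14 and 29 in SAM, a ratio of 2.26 (1.57 to 3.30). The third, of 4573 nt with 1 transcript, had 95 and 74 counts in VP64 and 29 and 52 in SAM, a ratio of 1.89 (1.45 to 2.50). The ninth, of 6302 nt, had 194 and 113 counts in VP64 and 76 and 88 in SAM, a ratio of 1.70 (1.40 to 2.07). DESeq2 gave none of the 10 whole-count clusters ranked here an adjusted p. Of these 10 clusters, 0, 2, 1 and 0 were still called without VP64 replicate 1, VP64 replicate 2, SAM replicate 1 and SAM replicate 2, with edgeR adjusted p from 0.0417 to 0.375.

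Whole counts were less common among called clusters than among all tested ones, at 13.6% against 20.3%. Of the 47 clusters called at least 2-fold higher, 24 had whole counts in all 10 libraries and 23 did not. Of the 15 called at least 2-fold lower, 4 had whole counts and 11 did not. For the remaining calls the value depends in part on how RSEM divided reads between clusters. In 4 called clusters the counts that were not whole could be matched to exactly 1 partner, with which they added up to whole numbers within 0.021. In 3 of these pairs the sum moved the same way as the called cluster. The fourth, a cluster of 2210 nt, was called lower in SAM with a fitted log2 difference of -6.53 (edgeR adjusted p = 0.0112), and held 0 counts in both SAM libraries, so that the size of this value depends on the prior count. Summed with its neighbour of 2268 nt, SAM was higher, at 7.21 ± 0.320 CPM against 4.63 ± 0.582 CPM (SD, n = 2 each). The ratio of the summed counts was 1.53 (95% exact Poisson interval 1.01 to 2.35), so the direction of that call turned once both clusters were counted together.

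Only 10 clusters were called in every fit that left out 1 of the 10 libraries, 2 of them higher in SAM and 8 lower. The 2 higher ones were clusters 29063 and 4232. The 8 lower ones ranged from 1752 to 6366 nt, and 6 of them fell outside the rule for named clusters and were chosen after these fits were seen. Of the 10, 9 were also called in every other fit. Cluster 4232 was called in all of them but DESeq2, which gave it no adjusted p.

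Cluster 950, a single transcript of 3323 nt, had the lowest adjusted p among the clusters that fell. It stood at 429 and 444 CPM in the VP64 libraries and at 211 and 225 CPM in the SAM libraries. The 2 pairs did not overlap, and the fitted log2 difference was -1.09 ± 0.10 (SE), with adjusted p = 7.07e-05 in edgeR's quasi-likelihood test. Suntag, at 328 and 275 CPM, lay between SAM and VP64. VPR, at 371 and 396 CPM, and the control, at 400 and 361 CPM, lay nearer to VP64.

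The cluster of 1752 nt, also a single transcript, showed a similar order. It had 427 and 516 CPM in VP64 and 223 and 255 CPM in SAM, and its fitted log2 difference was -1.06 ± 0.11 (SE, edgeR adjusted p = 0.000119). Suntag, at 296 and 349 CPM, was the group nearest to SAM. In the clusters of 1970 and 2136 nt SAM stood apart from every other group. The former had 335 and 332 CPM in SAM and 508 to 596 CPM in the other 8 libraries, and the latter had 534 and 582 CPM in SAM and 783 to 866 CPM in the others. Their log2 differences from VP64 were -0.78 ± 0.08 and -0.68 ± 0.08 (SE). The cluster of 3249 nt had 111 and 116 CPM in SAM and 194 and 185 CPM in VP64, a log2 difference of -0.83 ± 0.09 (SE). The cluster of 6366 nt had 312 and 318 CPM in SAM and 477 and 468 CPM in VP64, and VPR, at 373 CPM in both libraries, lay between them. In the cluster of 5567 nt, SAM at 180 and 154 CPM lay below VP64 at 248 and 254 CPM, with VPR at 215 and 200 CPM.

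**Figure D2:**
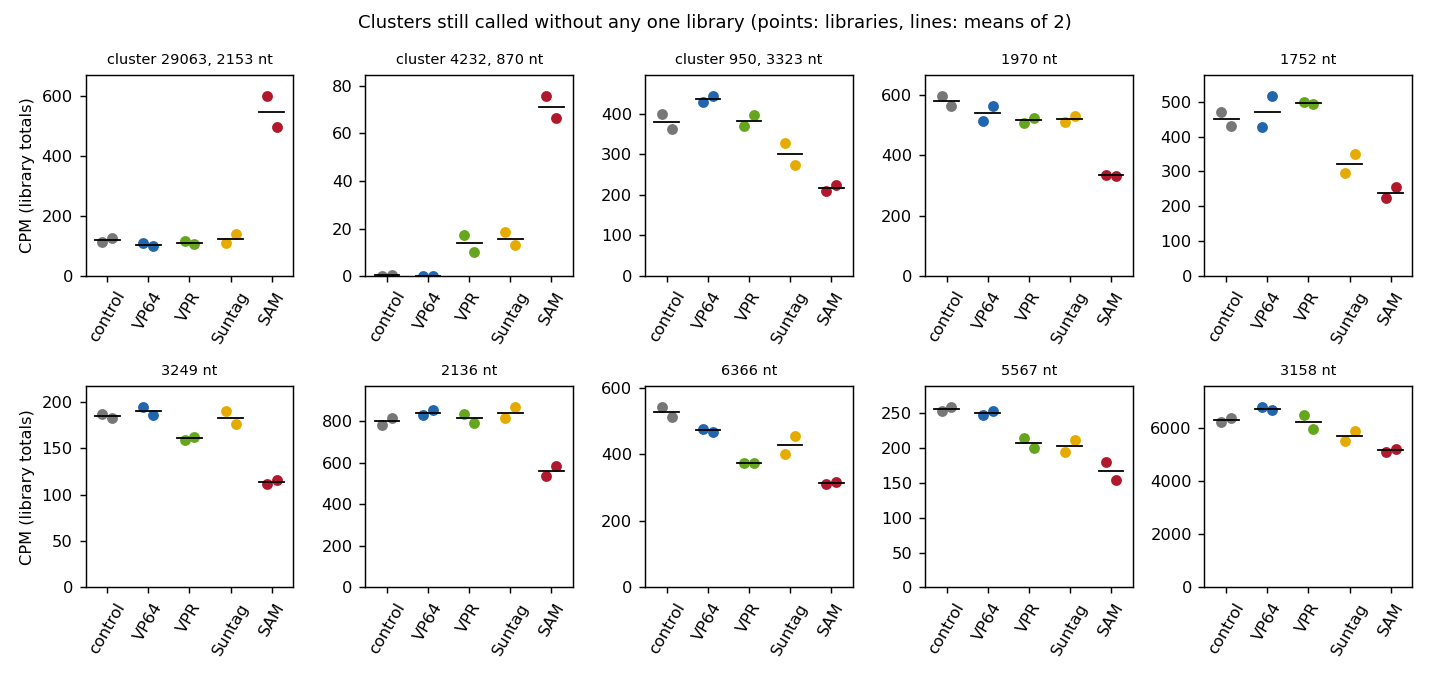
CPM of the 10 clusters called in every fit that left out 1 library, with a panel for each cluster, a point for each of the 10 libraries, coloured by group, and a line at the mean of the 2 libraries. Each vertical axis starts at 0. The SAM points lie above all others in the panels of clusters 29063 and 4232 and below all others in the remaining 8 panels.

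The calls with the most reads were small in size. Among clusters called higher, the highest mean CPM belonged to one of 2133 nt with 6 transcripts. It stood at 2718 and 2693 CPM in SAM and at 1683 and 1716 CPM in VP64, a log2 difference of 0.58 ± 0.10 (SE, edgeR adjusted p = 0.00841). The other 4 of the 5 higher calls with the highest mean CPM differed by 0.28 to 0.42 on the log2 scale. None of the 5 was called without any one of the 4 SAM and VP64 libraries, with edgeR adjusted p from 0.0593 to 0.252.

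Among clusters called lower, the highest mean CPM was that of one of 943 nt with 3 transcripts. It stood at 5815 and 6033 CPM in SAM and at 7347 and 7716 CPM in VP64, a log2 difference of -0.43 ± 0.07 (SE, edgeR adjusted p = 0.00709). The control libraries, at 6319 and 6229 CPM, lay between the 2 groups, and the VPR libraries stood at 8235 and 7448 CPM. The next by CPM, a single transcript of 3158 nt, was 1 of the 10 clusters called in every fit that left out a library. Per length it was lower than the other 4, at 4403 TPM in VP64 against 4768 to 18143 TPM. It had 5123 and 5207 CPM in SAM and 6789 and 6689 CPM in VP64, a log2 difference of -0.47 ± 0.06 (SE, edgeR adjusted p = 0.00151). The other 3 of the 5 lower calls with the highest mean CPM differed by -0.54 to -0.35 on the log2 scale. Of the 5, the fits without VP64 replicate 1, VP64 replicate 2, SAM replicate 1 and SAM replicate 2 called 1, 2, 1 and 3. All 5 were below 0 in every fit, but limma on log2(TPM + 1) called 2 of them, with adjusted p from 0.0445 to 0.173.

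At a mean of 50 CPM or more over the 4 libraries, 5 clusters were called at least 2-fold, a choice made after their values were seen. Besides clusters 29063 and 950 and the one of 1752 nt, these were a cluster of 6790 nt that was higher in SAM and one of 3083 nt that was lower. The former had 101 and 60.3 CPM in SAM and 30.1 and 38.0 CPM in VP64 (log2 difference 1.17 ± 0.30, SE, edgeR adjusted p = 0.0381). The control, at 130 and 64.5 CPM, was as high as SAM in this cluster, while VPR and Suntag stood at 27.9 to 37.4 CPM. It was not called without any one of the 4 SAM and VP64 libraries (edgeR adjusted p from 0.0541 to 0.291), and its log2 difference was 0.77 without SAM replicate 1 and 1.5 without SAM replicate 2. The cluster of 3083 nt had 147 and 156 CPM in SAM and 295 and 315 CPM in VP64 (log2 difference -1.09 ± 0.17, SE, edgeR adjusted p = 0.0053). It too was not called without any one of these 4 libraries, with edgeR adjusted p from 0.0517 to 0.0793.

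With TMM scaling, the share of clusters called lower rose with the CPM of the cluster. In the 215 clusters with a mean over 500 CPM across the 10 libraries, 36 were called lower in SAM (16.7%) and 2 higher (0.93%). In the 1784 clusters over 100 and up to 500 CPM the shares were 7.29% lower and 1.63% higher. The size of these shares moved with the scaling. Over 500 CPM, 15 were called lower (6.98%) and 4 higher with library totals, and 5 lower (2.33%) and 2 higher in limma on log2(TPM + 1). Of all 13241 tested clusters, 156 were called lower with library totals and 59 in limma. With library totals the share called lower rose with CPM as well, from 0.0466% at up to 5 CPM to 3.2% from 100 to 500 CPM and 6.98% above. From 100 to 500 CPM the larger side turned, to 73 higher and 57 lower with library totals and to 36 higher and 24 lower in limma. It did not turn with RLE factors (32 higher, 124 lower) or in limma with TPM rescaled by TMM (13 higher, 75 lower). At up to 5 CPM, 2 of 2148 were called lower (0.0931%) and 27 higher (1.26%), and each of these 29 differed at least 2-fold. The median SE of a log2 difference was 0.494 in that lowest class and 0.0779 in the highest, so smaller differences could pass the test in clusters with more reads. The median log2 difference of all tested clusters, called or not, ran from 0.15 in the lowest class to -0.17 in the highest. A scarce cluster could pass the filter through the libraries where it was higher, and the part of that in the lowest class was not tested.

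The same medians were taken for each library against the VP64 mean. Over 500 CPM they were -0.19 and -0.15 in the SAM libraries and -0.014 and 0.014 in the VP64 libraries themselves. The control libraries lay at -0.057 and -0.10, the Suntag libraries at 0.0085 and -0.048, and the VPR libraries at 0.065 and 0.036. At up to 5 CPM the SAM libraries lay at 0.14 and 0.18, and the other 8 libraries between -0.018 and 0.045. Both SAM libraries were thus the lowest of the 10 in the class of highest CPM and the highest in that of lowest CPM. The median of the class over 500 CPM stayed below 0 without TMM, at -0.077 with library totals and -0.040 in limma on log2(TPM + 1). That of the class from 100 to 500 CPM, -0.057 with TMM, turned to 0.033 and 0.072 in these fits. It was -0.051 with RLE factors and -0.050 in limma with TPM rescaled by TMM. The lower calls over 500 CPM fell from 36 to 2, 4, 2 and 7 without VP64 replicate 1, VP64 replicate 2, SAM replicate 1 and SAM replicate 2, and rose to 78 and 81 without either Suntag library. The median of the class over 500 CPM stayed between -0.19 and -0.15 in the fits that left out these libraries.

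**Figure D3:**
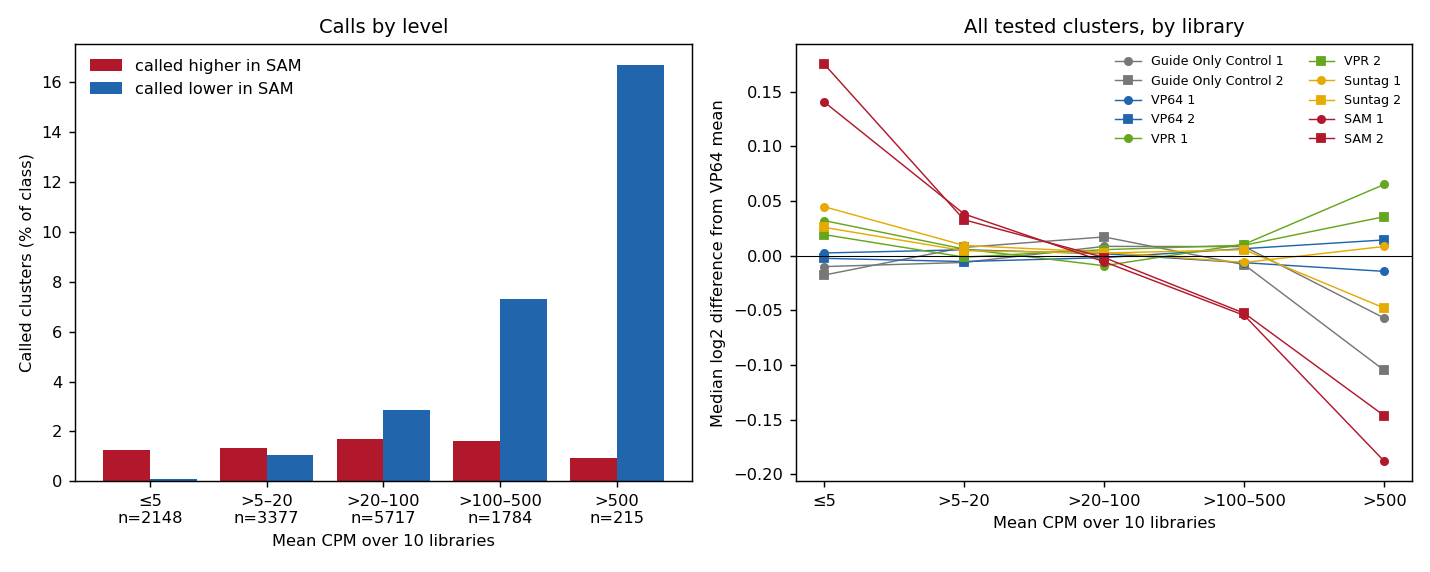
Left, percent of the tested clusters in each class of mean CPM that were called higher (red) or lower (blue) in SAM than in VP64, with the number of clusters under each class. Right, median log2 difference from the VP64 mean of all tested clusters in each class, with a line for each of the 10 libraries. The lower calls rise to 16.7% over 500 CPM, where both SAM libraries lie lowest at -0.19 and -0.15.

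Transcript length and level were crossed, because the fragments differed between libraries. The mean fragment, taken from the difference of transcript and effective length, was 117 and 98.5 nt in SAM and 104 and 124 nt in VP64. Over 500 CPM the share of clusters called lower was 31.2% of 16 under 700 nt, 23.4% of 47 from 700 to 1500 nt, 12.1% of 91 over 1500 to 3000 nt and 14.8% of 61 over 3000 nt. Over all 215 clusters of this level the share was 16.7%. The 2.77% of all tested clusters is no fair measure here, because scarcer clusters had a larger SE. Whether length or fragment size bears on these shares was not tested.

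By length alone the differences were slight. Under 700 nt, 248 clusters were tested. SAM was called higher in 2 (0.806%) and lower in 9 (3.63%), against 1.52% and 2.77% of all tested clusters. The median log2 difference of the 248 was -0.16. Of the 6260 over 3000 nt, 120 were called higher (1.92%) and 162 lower (2.59%), with a median of 0.03. The median under 700 nt was -0.26 and -0.12 in the 2 SAM libraries against the VP64 mean, but it was lower still in the control, at -0.33 and -0.38, and -0.23 in Suntag replicate 2. It moved to -0.27 without SAM replicate 2, and that over 3000 nt moved to 0.0096 without SAM replicate 1. With each library's trend on length removed these medians were -0.052 and 0.0062, while 643 clusters were called in place of 568.

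Summed over clusters, the calls took up a modest part of the RNA. The 201 clusters called higher held 1.76 ± 0.040% of the counts in SAM and 1.13 ± 0.020% in VP64 (SD, n = 2 each). The 367 called lower held 8.60 ± 0.163% in SAM and 10.9 ± 0.052% in VP64. These clusters were chosen on this difference, so the sums describe its size and are no test. In VPR, Suntag and the control the higher clusters held 1.23%, 1.35% and 1.32% of the counts and the lower clusters 10.8%, 10.0% and 9.98%. These means lay between those of SAM and VP64. For the lower clusters, however, VPR replicate 1 stood at 11.06%, above both VP64 libraries at 10.88% and 10.95%.

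The clusters called between SAM and VP64 were then followed in the 6 libraries of the other groups, whose levels did not set the direction of a call but did enter the estimate of spread. Suntag exceeded the control in 129 of the 201 clusters called higher (64.2%) and in 128 of the 367 called lower (34.9%), against 50% of all tested clusters. The median log2 difference of Suntag from the control was 0.07 in the former and -0.07 in the latter. VPR exceeded the control in 46.3% of the higher and 54.0% of the lower clusters, against 47.7% of all. Its median log2 difference from the control was -0.02 in the higher and 0.02 in the lower clusters, close to the -0.015 of all tested clusters. Whether Suntag and VPR differ here was not tested. The 2 comparisons share the control libraries.

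**Figure D4:**
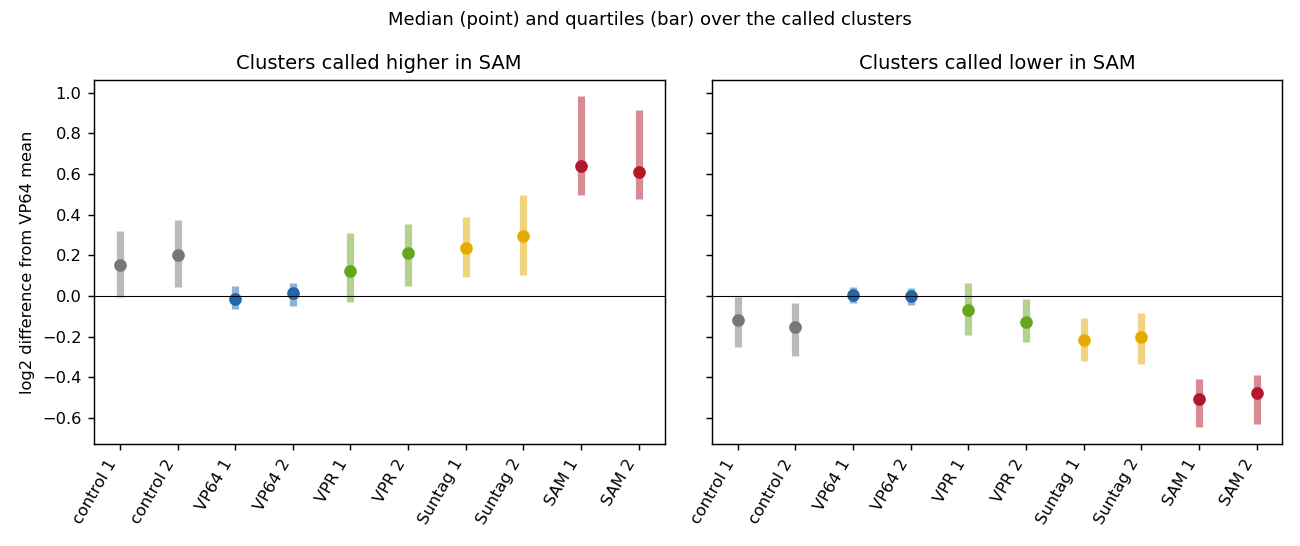
Log2 difference from the VP64 mean for the 201 clusters called higher (left) and the 367 called lower (right) in SAM, with the median as a point and the quartiles as a bar for each of the 10 libraries. The SAM libraries lie at 0.64 and 0.61 on the left and at -0.51 and -0.48 on the right, and the other groups lie between them and VP64. The clusters were chosen on SAM and VP64.

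In most called clusters the other groups stood apart from SAM. Of the 201 called higher, both VPR libraries lay below both SAM libraries in 94.0%, both Suntag libraries in 85.1% and both control libraries in 91.0%, against 27.0%, 22.8% and 27.2% of all tested clusters. They lay above both VP64 libraries in 49.3%, 67.7% and 58.2%, against 20.3%, 22.8% and 23.5% of all. Of the 367 called lower, they lay above SAM in 95.1%, 86.4% and 86.9%, against 27.5%, 25.5% and 26.6% of all, and below VP64 in 47.7%, 74.1% and 59.1%, against 20.4%, 22.2% and 24.1%. The called clusters were chosen on the SAM and VP64 libraries, which raises these shares, so they are a description.

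The 5 tested clusters whose log2 CPM over the 10 libraries was most like that of cluster 4232 had Pearson correlations of 0.93 to 0.94 with it. The 10 points share their libraries and depth with cluster 4232. These correlations are the highest of a search over all tested clusters, so their size is a description and was not tested. In order of likeness the lengths of the 5 clusters were 2604, 2200, 3029, 2936 and 2594 nt. They were chosen on the same libraries as a cluster that is highest in SAM and at 0 in VP64, so their own difference between these groups is a description. It was largest among those called in the cluster of 2594 nt, at 46.3 CPM in SAM and 28.3 CPM in VP64 on average (log2 difference 0.62, edgeR adjusted p = 0.0148), and VPR stood at 41.7 CPM.

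Clusters with too few counts to be tested were counted as well. Of the 18607 such clusters, 320 had counts in both SAM libraries and in neither VP64 library, and 112 had the reverse. The highest summed SAM count among the 320 was 15. With no filter on low counts, 6722 of the clusters left out entered the fit, and 12 of them were called higher and 4 lower in edgeR's quasi-likelihood test. Of all 19963 clusters in that fit, 439 were called higher and 774 lower.

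**Figure D5:**
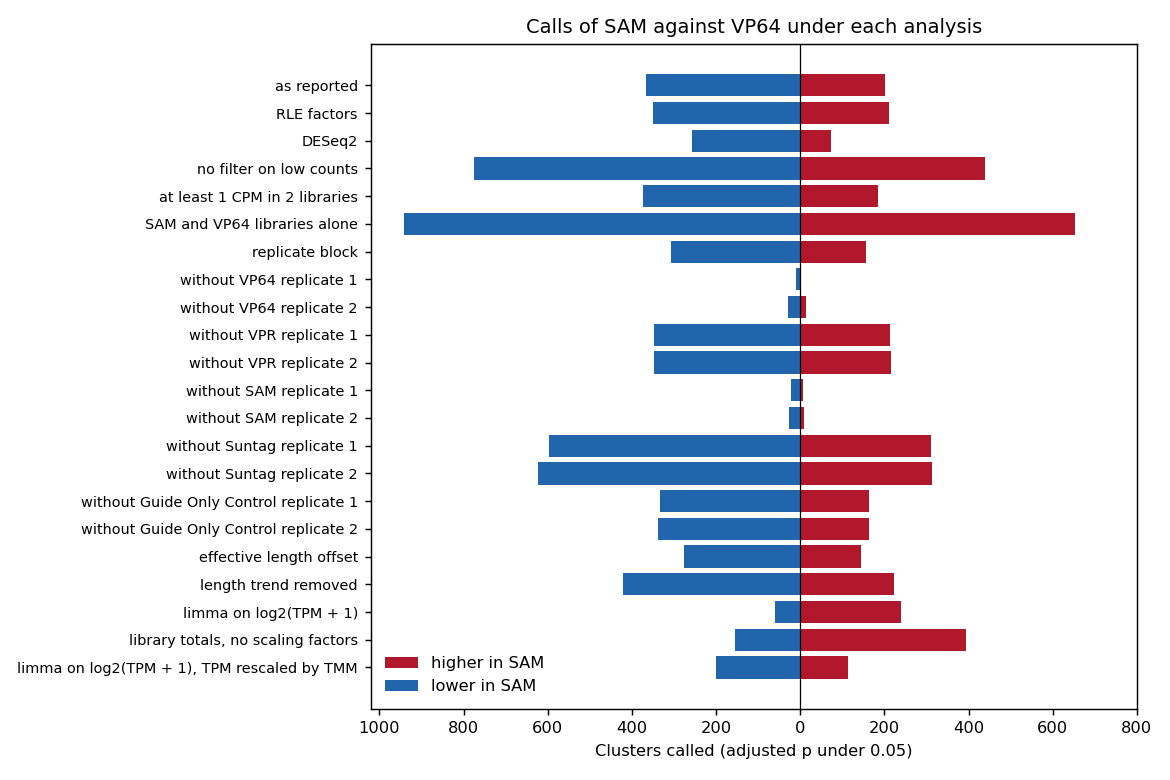
Number of clusters called higher (red, right of 0) and lower (blue, left of 0) in SAM than in VP64 in the reported analysis and in each alternative. The total falls from 568 to between 12 and 42 when a SAM or VP64 library is left out, and the larger side changes from lower to higher with library totals and in limma on log2(TPM + 1).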

How the data were processed

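RNA-seq was analysed from 10 libraries, grouped by sample title. The authors deposited 1 table per library, made with RSEM 1.2.1 on the hg19 build per the submitters' processing notes, with an annotation not given in the sources used here. The columns, per the file headers, are the expected count, the estimated reads of each cluster, the TPM, the abundance adjusted by effective length and scaled to a fixed sum, and the authors' transcript and effective lengths. The FPKM were not used. Libraries summed to 3316534 to 7447949 expected counts.

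Expected counts were rounded and tested with edgeR 4.0.16 in R 4.3.3. The steps were filterByExpr, TMM factors and the two-sided quasi-likelihood test. All 10 libraries entered 1 fit, each group had its own coefficient, and 5 residual degrees of freedom remained. The adjustment was that of Benjamini and Hochberg (Benjamini-Hochberg) over 13241 clusters, with a threshold of 0.05. The SE equals the size of the log2 difference over the root of the F statistic. A two-sided exact permutation of 2 libraries against 2 cannot give p below 0.333, so no such test was used. Ratios of counts have exact 95% Poisson intervals, with 3 counts over the group where it held 0, and cover counting error only. Between the 2 libraries of a group, counts differed by more than sampling noise. The chi-square per degree of freedom was 2.28 in SAM and 1.70 in VP64.

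Named clusters were called, without overlap in CPM and at 1 CPM or more. They were the 10 largest differences in each direction with counts whole within 0.01, the 5 most abundant calls in each direction, and the lowest adjusted p. At most 2 higher and 2 lower clusters are given by number. Members, lists and length classes were chosen with earlier results of these data known. Of the 82960 transcript identifiers, 5 were found in the name tables, and none of their clusters was tested. The lists of genes and cell type markers could therefore not be counted.

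Alternatives were RLE factors, DESeq2 1.42.0, 2 other filters, SAM and VP64 alone, a replicate block, each library left out, an effective length offset, a length trend removed, and limma 3.58.1 on log2(TPM + 1). Library totals, and TPM rescaled by TMM, were added after seeing the data.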

Additional observations from a re-analysis of the deposited data

How the results depend on the processing

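The count of 568 called clusters was within 1.5 times with RLE factors, a minimum of 1 CPM in 2 libraries, the effective length offset, the length trend removed, and library totals. It was 330 with DESeq2, which gave 6931 clusters no adjusted p, 1213 with no filter, 1594 in SAM and VP64 alone, 299 in limma on log2(TPM + 1) and 315 with that TPM rescaled by TMM. The cause was not tested. The 62 calls of at least 2-fold became 4 with DESeq2, 203 with no filter and 133 in SAM and VP64 alone. The fits that left out 1 library called 12 to 936 clusters, and 5 to 89 at least 2-fold. With the replicate block 465 were called, 449 of them among the 568, and 57 at least 2-fold. Whether the replicate numbers pair the libraries is not known. The deviations of same-numbered SAM and VP64 libraries correlated at 0.065 over 11093 clusters. That was the highest of the 10 pairs of groups, the lowest being -0.148. With 2 libraries per group such a correlation cannot settle the question. The median log2 difference under 700 nt, -0.16, was 0 with no filter, -0.052 with the length trend removed, -0.049 in limma on log2(TPM + 1) and -0.068 with library totals, and from -0.27 to -0.12 with 1 library left out. The median over 3000 nt, 0.03, was 0.0062, 0.14 and 0.12 in the last 3 of these, and 0.0096 to 0.041 with 1 library left out. The larger side of the calls turned from lower to higher with library totals (394 higher, 156 lower) and in limma on log2(TPM + 1) (240 higher, 59 lower). In those fits the median of the class from 100 to 500 CPM turned from -0.057 to 0.033 and 0.072. Lower stayed the larger side with RLE factors (212 higher, 349 lower) and in limma with TPM rescaled by TMM (114 higher, 201 lower). Depth limits the scarce clusters, and groups of 2 limit the rest.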
